A study of Mus musculus with 3 samples.

Results

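The genes described here are the small nuclear RNA (snRNA), small nucleolar RNA (snoRNA) and small Cajal body RNA (scaRNA) genes that were counted in RNA attached to the chromatin of mouse macrophages. A gene was taken when its annotated type was one of the 3 and its expected count was at least 20 in each of 3 libraries. That gave 65 of 2941 annotated genes of these types, among 55536 annotated genes in all. They were 32 of 1507 snoRNA genes, 26 of 1383 snRNA genes and 7 of 51 scaRNA genes. Over all annotated genes, 20.6% reached the same minimum. The members were thus chosen by their expected counts in these same libraries, so their levels are given as a description and carry no test.

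The cells were bone-marrow-derived macrophages of C57BL/6J mice. They had 100 ng/ml lipid A, the part of lipopolysaccharide that Toll-like receptor 4 recognises, for 12 h, then a washout of 12 h and 100 ng/ml lipid A again for 90 min. Total RNA of the chromatin fraction was sequenced after removal of ribosomal RNA. The 3 libraries are replicates of 1 condition, made from 1 µg (replicate 1), 250 ng (replicate 2) and 500 ng (replicate 3) of RNA, and the labels list a size range of 250 to 400 without a unit. Sex and age were not collected, no untreated cells were analysed here, and the labels do not say whether the replicates were separate cultures, so the spread between them may be partly technical. Total expected counts on annotated genes were 12502177, 21683473 and 16844974 in replicates 1, 2 and 3. Levels are CPM, the usual scaling of counts to a common library total, as mean ± SD with n = 3. The macrophage markers reached a TPM, an abundance corrected for length and library total, of at least 1 in each library for 8 of 8 genes, from Adgre1 at 351, 481 and 433 TPM to Fcgr1 at 16.2, 20.0 and 8.83 TPM. Of 20 markers of other cell types, 2 did: Alas2 at 4.63, 5.34 and 3.32 TPM, and Vwf at 35.9, 15.2 and 25.4 TPM. The neutrophil markers summed to 0 to 0.34 TPM, and Cd3e and Cd3g were listed at 0.

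snRNAs are the RNA cores of the spliceosome. U1 pairs with the 5′ splice site, U2 with the branch point, U4 holds U6 until the spliceosome is activated, and U12 stands in for U2 in the minor spliceosome. Most snoRNAs guide chemical marks on ribosomal RNA in the nucleolus: those with boxes C and D guide methylation of the ribose, and those with boxes H and ACA guide the change of uridine to pseudouridine. A few, such as U3, are needed to cut the ribosomal RNA precursor instead. scaRNAs guide the same marks on snRNAs, in Cajal bodies. In mammals most snoRNAs and scaRNAs are cut from introns of other genes, whereas U1, U2, U3 and U4 are transcribed from many copies of their own genes.

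The sequences that the following results turn on are those of the copies that share reads, of the genes on which the quantifications differed, and of snoRNAs with recognisable boxes. All are GENCODE M21 transcripts on mm10 (GRCm38), 5′ to 3′. Rnu1a1 (chr11:87422867-87423030, plus strand) is shown with the stretch that pairs with the 5′ splice site in capitals. Gm22513 (chr12:54696782-54696945, plus strand) has in capitals the single base at which it differs from Rnu1a1. Rnu2-10 (chr11:101658238-101658428, plus strand) has the branch point pairing stretch GTAGTA in capitals. Gm24497 (chr1:72244213-72244403, plus strand) has in capitals the 2 bases at which it differs from Rnu2-10.
Rnu1a1: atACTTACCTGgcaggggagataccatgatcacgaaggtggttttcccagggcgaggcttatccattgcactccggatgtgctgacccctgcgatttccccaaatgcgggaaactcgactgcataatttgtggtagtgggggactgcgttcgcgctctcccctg
Gm22513: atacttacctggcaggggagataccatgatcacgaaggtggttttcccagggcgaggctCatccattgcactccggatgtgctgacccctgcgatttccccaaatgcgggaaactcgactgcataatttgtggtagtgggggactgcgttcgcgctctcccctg
Rnu2-10: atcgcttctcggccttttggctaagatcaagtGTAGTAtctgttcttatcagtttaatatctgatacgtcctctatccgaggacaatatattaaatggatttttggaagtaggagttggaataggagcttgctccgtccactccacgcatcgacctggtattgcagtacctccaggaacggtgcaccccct
Gm24497: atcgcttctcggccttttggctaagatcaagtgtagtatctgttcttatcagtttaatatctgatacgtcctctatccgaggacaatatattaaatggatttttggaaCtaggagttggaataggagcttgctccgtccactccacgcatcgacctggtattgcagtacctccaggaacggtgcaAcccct

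Rnu12, the U12 gene (chr15:83149644-83149794, plus strand), and Gm24265 (chr5:115489459-115489599, plus strand) have in capitals the match to ATTTNTG, the letters searched for the site that binds the ring of Sm proteins. Rnu3a (chr10:40258467-40258679, plus strand) and Rnu3b1 (chr11:87443237-87443451, plus strand), both U3 genes, have in capitals the TGATGA and CTGA nearest the 3′ end.
Rnu12: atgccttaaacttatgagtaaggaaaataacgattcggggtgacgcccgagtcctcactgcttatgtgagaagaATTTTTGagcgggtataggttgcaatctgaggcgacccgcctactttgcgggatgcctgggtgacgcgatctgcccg
Gm24265: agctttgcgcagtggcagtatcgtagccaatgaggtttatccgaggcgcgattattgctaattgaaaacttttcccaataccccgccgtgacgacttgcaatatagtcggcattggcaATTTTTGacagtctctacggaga
Rnu3a: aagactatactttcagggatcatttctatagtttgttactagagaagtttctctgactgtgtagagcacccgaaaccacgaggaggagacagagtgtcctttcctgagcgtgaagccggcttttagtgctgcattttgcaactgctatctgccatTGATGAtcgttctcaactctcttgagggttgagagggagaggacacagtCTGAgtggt
Rnu3b1: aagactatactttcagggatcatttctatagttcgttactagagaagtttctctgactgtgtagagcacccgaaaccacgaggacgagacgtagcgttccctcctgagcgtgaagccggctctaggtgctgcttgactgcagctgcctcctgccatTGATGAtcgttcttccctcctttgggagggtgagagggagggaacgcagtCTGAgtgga

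Gm22988 (chr11:69669635-69669778, minus strand) ends in the letters of an ACA box, 3 bases before its end, in capitals. Snord15b (chr7:99479563-99479707, minus strand) and Snord17 (chr2:144265979-144266216, minus strand) have their TGATGA near the 5′ end and CTGA near the 3′ end in capitals. Snord22 (chr19:8725866-8725991, plus strand), the shortest member, has its CTGA in capitals.
Gm22988: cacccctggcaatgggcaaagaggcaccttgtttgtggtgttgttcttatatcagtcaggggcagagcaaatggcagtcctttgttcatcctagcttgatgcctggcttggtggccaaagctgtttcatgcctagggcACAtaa
Snord15b: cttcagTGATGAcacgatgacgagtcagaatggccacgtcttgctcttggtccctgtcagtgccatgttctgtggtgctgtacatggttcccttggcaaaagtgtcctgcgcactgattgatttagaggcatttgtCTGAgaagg
Snord17: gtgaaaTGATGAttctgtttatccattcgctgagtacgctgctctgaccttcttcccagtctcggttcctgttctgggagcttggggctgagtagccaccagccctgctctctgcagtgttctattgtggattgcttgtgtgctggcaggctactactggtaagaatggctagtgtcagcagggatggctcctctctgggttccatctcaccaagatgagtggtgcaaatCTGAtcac
Snord22: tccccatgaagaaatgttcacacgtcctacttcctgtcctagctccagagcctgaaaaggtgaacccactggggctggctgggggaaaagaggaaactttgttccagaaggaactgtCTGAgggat

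Scarna10 had the highest counts of the members, with 12246, 15483 and 13998 expected counts in replicates 1, 2 and 3. It is annotated as a snoRNA despite its name, and guides marks on U5 snRNA. Its level was 842 ± 133 CPM, and the lowest library, replicate 2, had 714 CPM. Gm22009, a scaRNA in an intron of Kpna4, had 3924, 13048 and 11380 expected counts, or 530 ± 191 CPM. Replicate 1 had the lowest level of Gm22009, 314 CPM against 602 and 676. Gm22988, a snoRNA with an ACA box within Eif4a1, had 5791, 3309 and 2823 expected counts, or 261 ± 175 CPM. Here replicate 1 was the highest library, at 463 CPM against 153 and 168. Scarna2, which guides methylation of U2 snRNA, had 1268, 6892 and 4199 expected counts, or 223 ± 111 CPM, and was lowest in replicate 1.

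Together the members took 0.552%, 0.384% and 0.395% of the expected counts in replicates 1, 2 and 3, and Scarna10 alone 19.1% ± 1.73 of that. The 10 members with the highest mean level took 62.2% ± 5.24, and 6 of these 10 were U2 genes, with Rnu2-10 level with the last of them. Per kilobase of annotated length, Scarna10 remained first at 2589 CPM, followed by Gm22988 at 1813 CPM and Gm22009 at 1546 CPM. The members also held nearly all expected counts of their types, 99.0% ± 0.284 of those on snRNA, snoRNA and scaRNA genes. This largely follows from the rule, which chose them by the same counts. By the other deposited counts, made directly from reads, their share was 79.9% ± 0.421. At the other end, Gm22214 was the lowest snRNA at 1.73 ± 0.829 CPM, Snora68 the lowest snoRNA at 2.08 ± 0.505 CPM and Gm23119 the lowest scaRNA at 2.19 ± 0.675 CPM.

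**Figure D1:**
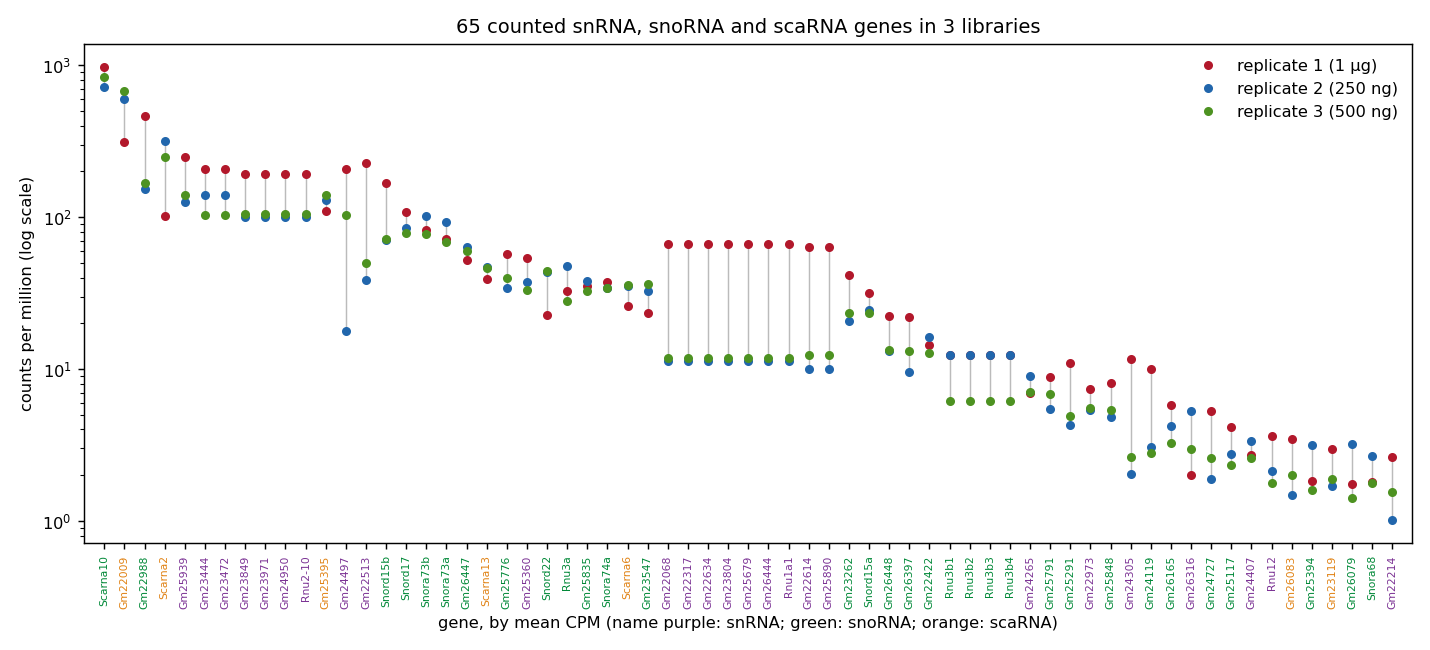
Level in CPM (log axis) of the 65 members in each library, ordered by mean level, with a grey line from the lowest to the highest library; name colours give the annotated type. Scarna10 leads in every library, and the row of 9 nearly equal genes in the middle are U1 copies, each far higher in replicate 1 than in replicates 2 and 3.

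The TPM of the gene table ranked the members differently. TPM divides counts by an effective length, the number of places a fragment can start, which is far smaller than these genes. For Gm22988, with 144 bases, the effective length was 5.03, 2.89 and 3.09 bases, and its TPM was 106003, 58387 and 60735, the highest of all members. Scarna10, with 325 bases and effective lengths of 126, 88.6 and 95.6, came 10th by TPM at 8918, 8898 and 9735. The effective length was below 10 bases in every library for 22 members, and smaller in replicates 2 and 3 than in replicate 1 for 65 of 65. The members therefore held 44.6%, 36.2% and 34.5% of all TPM with the counts given above. In the table made from reads, where Gm22988 had an effective length of 26.1 bases in replicate 1, they held 9.56%, 5.13% and 5.38% of TPM. Snord22 shows the limit of the scale: with effective lengths of 1.51, 0 and 0 bases it was listed at 17361 TPM in replicate 1 and at 0 in the others, although its 939 and 750 expected counts there exceeded the 285 of replicate 1.

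Length also separated counted from uncounted genes. None of 655 genes under 100 bases and none of 1137 genes of 100 to 125 bases was counted, against 21 of 867 of 126 to 149 bases, 27 of 242 of 150 to 199 bases and 17 of 40 of 200 bases or more. In the gene table the effective length was 0 in every library for 655 of the 655 shortest genes and for 1042 of the 1137 next. In the table made from reads, at least 20 counts in each library were reached by 33 and 56 genes of these shortest classes. What part length, the selection of fragments and the levels in the cell each have in this cannot be told apart here.

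**Figure D2:**
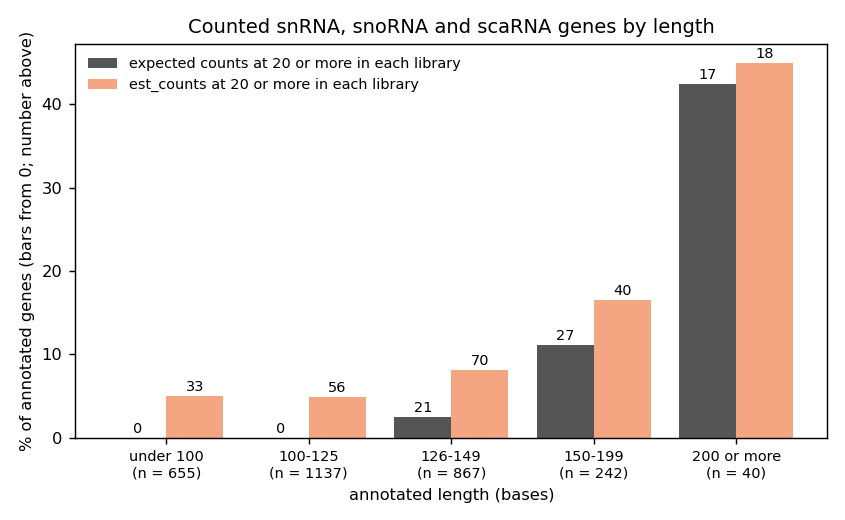
Share of annotated snRNA, snoRNA and scaRNA genes with at least 20 counts in each library, by annotated length, for expected counts (grey) and for est_counts of the table made from reads (orange), with the number of genes above each bar. The grey share is 0 below 126 bases and 42.5% at 200 bases or more, whereas the orange share is 5.04% even under 100 bases.

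The U1 genes were the members with the largest common difference between libraries. Members of at least 85% sequence identity were joined into families, and each family was summed over all annotated genes that similar, because reads of identical copies cannot be assigned to one of them. The Rnu1a1 family had 11 members of 42 annotated genes and summed to 10686, 3069 and 3163 expected counts, or 855, 142 and 188 CPM. Replicate 1 was 5.19 times the mean of replicates 2 and 3. The table made from reads gave 549, 97.6 and 129 CPM, a ratio of 4.84. With TMM or DESeq2 scaling in place of total counts, the ratio was 4.86 or 4.98. All 11 members were highest in replicate 1 under each scaling.

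Within the family, Rnu1a1 and 6 further genes (Gm22068, Gm22317, Gm22634, Gm23804, Gm25679 and Gm26444) have the same sequence and were listed with the same 828, 243 and 199 expected counts each. Their sum was 5794, 1701 and 1393. The deposited posterior SD of the count of Rnu1a1 was 45.6%, 75.1% and 77.8% of its posterior mean, so the value of a single copy says little. Gm22513 differs from them by T60C, counted from the first base, and had 2860, 830 and 838 expected counts with a posterior SD of 0.0052% in replicate 1. Gm24305 differs by A26G and had 146, 44.5 and 44.3 expected counts. Gm22614 and Gm25890, 1 base longer and identical to each other, had 790, 217 and 210 each. In CPM each of these sequences was highest in replicate 1 and lowest in replicate 2.

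The U2 genes had the highest sum of any family. The Rnu2-10 family, with 11 members of 16 annotated genes, summed to 21333, 18954 and 15315 expected counts, or 1163 ± 471 CPM, with 1706, 874 and 909 CPM in the libraries. Replicate 1 was 1.91 times the mean of the others, and 1.97 times in the table made from reads. Rnu2-10, Gm23849, Gm23971 and Gm24950 share a sequence and had 2407, 2177 and 1763 expected counts each. Gm23444 and Gm23472 differ from it by G109C. Gm25939 carries T69C, C78T and G109C and, as the U2 gene with the highest level, had 3095, 2723 and 2352 expected counts, or 171 ± 66.7 CPM. Gm25360, with C78T, A95G, G109C and C154T, had 677, 816 and 558.

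Gm24497 had the largest spread of all members, an SD of 1.83 in log2 CPM. It carries G109C and C186A, the second near its 3′ end. Its expected counts were 2605, 386 and 1737, and in replicates 1 and 3 they equalled those of Gm23444 to all printed digits. In replicate 2, Gm23444 had 3043.5 instead. The posterior SD of Gm24497 was 35.6%, 48.4% and 51.7% of its posterior mean, and the table made from reads gave 2426, 1402 and 1728 counts. The sum of the family in these replicates 2 and 3 was 874 and 909 CPM. Gm26316, with C170T, was the only U2 member lowest in replicate 1, at 24.9, 115 and 49.9 expected counts.

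**Figure D3:**
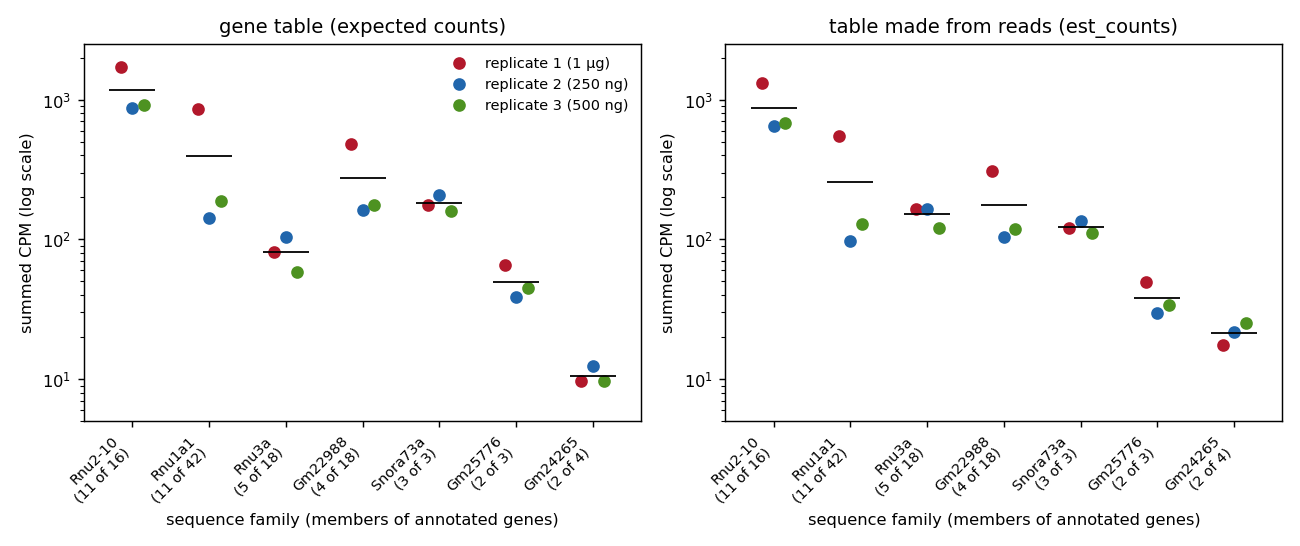
Summed CPM (log axis) of the 7 sequence families in each library, left from expected counts and right from est_counts; black lines are means over the 3 libraries, and the axis gives members of annotated genes. Replicate 1 stands above the others for Rnu2-10, Rnu1a1 and Gm22988 in both tables, and lies among or below them for Snora73a and Gm24265.

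Other snRNAs were at low levels in the gene table. Gm24265 and Gm24407, which differ by G88A and C99A, had 87, 195 and 119 and 34, 73 and 44 expected counts. Their family of 4 annotated genes summed to 121, 269 and 163 expected counts, against 354, 845 and 743 in the table made from reads. Rnu12 had 45, 46 and 30 expected counts, or 2.50 ± 0.967 CPM. In the table made from reads it had 959, 968 and 732, a ratio of 22.0 and the largest of any member. Rnu6, Rnu7 and Rnu11, the named genes of U6, U7 (which serves histone RNA ends) and U11 of the minor spliceosome, were at 0 in every library of both tables. Rnu6, with 107 bases, and Rnu7, with 62, are of lengths at which no gene was counted in the gene table, so their 0 there sets no limit on their level. The table made from reads had genes as short as 63 bases with at least 20 counts in each library. There the 0 of Rnu6 allows up to 3 counts, or 0.148, 0.0776 and 0.102 CPM, for counting error only. For Rnu11, with 134 bases, an expected count of 0 allows up to 3 counts, or 0.240, 0.138 and 0.178 CPM, for counting error only. Rnu5g was at 0 expected counts and at 64.8, 39.7 and 30.1 est_counts.

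All 26 snRNA members held the letters ATTTNTG on their own strand. So did 283 of 1383 annotated snRNA genes (20.5%), and 103 of the 264 uncounted ones of at least 126 bases (39.0%). The other strand of the members had the letters in 0 of 26. ACTTACCTG lay within 20 bases of the 5′ end in 11 of 26, the U1 members, and in 3.98% of annotated snRNA genes. GTAGTA was present in 11 of 26, the U2 members, and in 3.69% of annotated snRNA genes. A match describes the letters and is not a tested site, and since many members are copies of each other these counts are not independent.

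The U3 genes, needed for the first cuts of the ribosomal RNA precursor, were split between double entries. Rnu3a is annotated at the same start in 213 and in 214 bases. The shorter entry had 408, 1033 and 469 expected counts and the longer one 0, 49.4 and 0. In the table made from reads the shorter entry had 909, 1690 and 61.3 and the longer one 807, 1963 and 1992. Rnu3b1 to Rnu3b4, identical to each other, are likewise entered with 215 and with 216 bases. Each shorter entry, a member, had 154, 269 and 104 expected counts and under 1 est_count in each library. Each longer entry had 0, 25.7 and 26.7 expected counts and 408, 689 and 375 est_counts. The sum of the family, over 18 annotated genes, was 1024, 2259 and 992 expected counts, or 81.7 ± 22.6 CPM, and 3.12 times as many est_counts. These 4 shorter entries were the only members under 20 est_counts.

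Among snoRNAs named Snord, Snord17, in an intron of Snx5, had 1348, 1841 and 1323 expected counts, or 90.4 ± 15.4 CPM. Snord15b had 2104, 1522 and 1210 expected counts, or 103 ± 56.2 CPM, and Snord15a 397, 528 and 394, or 26.5 ± 4.58 CPM; both lie within Rps3, a ribosomal protein gene. Snord15b was highest in replicate 1, at 168 CPM against 70.2 and 71.9. Gm25835, the second snoRNA within Eif4a1, was nearly level across libraries at 35.3 ± 2.83 CPM. Snord22, within the noncoding host gene Snhg1, had 22.8, 43.3 and 44.5 CPM. Snord118, the U8 snoRNA of large subunit processing, was no member, with 0, 4 and 0 expected counts and 51, 57 and 42 est_counts. Snord13, at 0 expected counts, had 17, 23 and 19 est_counts, and no gene named Snord3a was matched.

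Snora73a and Snora73b, U17 snoRNAs that act in cutting the ribosomal RNA precursor, had 77.3 ± 13.0 and 87.4 ± 12.8 CPM. They lie within Rcc1 and Snhg3, differ at 7 bases (the first is G3A) and were in the same order in every library. Gm26448, a related gene within Rpsa, had 16.4 ± 5.28 CPM. Gm26447, within Eif4a2, had 656, 1377 and 1009 expected counts, or 58.6 ± 5.63 CPM, and an effective length of 1.94, 1.13 and 1.20 bases placed it second by TPM. Snora74a, on chromosome 18, had the smallest spread of the members, an SD of 0.07 in log2 CPM, with 37.2, 34.1 and 34.2 CPM. Gm25835 came next at 0.12, then Scarna13 and Gm26447 at 0.14. The Gm22988 family, with 4 members of 18 annotated genes, summed to 484, 162 and 177 CPM, of which Gm22988 had 463, 153 and 168. Gm25291, which differs from Gm22988 by G24A, T44A, A70G and A143T, had 137, 93 and 82 expected counts. Gm24119, within the mitochondrial phosphate carrier gene Slc25a3, had 125, 66 and 47 expected counts, or 5.28 ± 4.09 CPM.

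Gm25395 and Scarna6, both in introns of the autophagy gene Atg16l1, had 126 ± 15.3 and 32.3 ± 5.61 CPM. Scarna13, in an intron of Snhg10, had 490, 1011 and 782 expected counts, or 44.1 ± 4.23 CPM. Gm26083, within Snhg20, had 43.6, 32.1 and 34 expected counts. Gm23119, on chromosome 18, had 37, 37 and 32 expected counts and 259, 250 and 223 est_counts, the second largest ratio of the 2 tables. Of the 7 scaRNA members, 5 were lowest in replicate 1 under each scaling, against 37.1% of all genes past the same minimum on total counts.

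Across all members, replicate 1 was the highest library for 42 of 65, against 43.9% of all genes past the same minimum. Copies weigh in this count: of the 46 members with a sequence of their own it was 27, and of the 43 members outside the U1 and U2 families it was 21. By type it was 23 of 26 snRNAs, 17 of 32 snoRNAs and 2 of 7 scaRNAs. The median SD of log2 CPM was 0.53 for the members and 0.30 for all genes past the minimum. Copies weigh here too: it was 0.41 for members with a sequence of their own and 0.42 for those outside the U1 and U2 families. Over replicates 2 and 3 alone the median of the members was 0.15. An SD above 1 was found for 13 members (20.0%), which are 11 U1 genes, Gm24497 and Gm24119, and for 1.39% of all genes past the minimum.

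Noncoding RNAs of other types did not share one order of libraries. Rmrp, the RNA of the mitochondrial RNA processing enzyme, is annotated under 2 identifiers: the ribozyme entry had 2012, 5418 and 6168 CPM, and the lincRNA entry 93.1, 1507 and 855 CPM. Rn7sk, which holds the elongation factor P-TEFb, had 1861, 1053 and 1971 CPM, and Rpph1, the RNA of ribonuclease P, 278, 134 and 213 CPM. Terc, the telomerase RNA, had 1, 6 and 5 expected counts. Replicate 1 also had the most starting RNA, the fewest counts in all and, in the gene table, the largest effective lengths of the 3. The part of these in its differences was not tested.

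**Figure D4:**
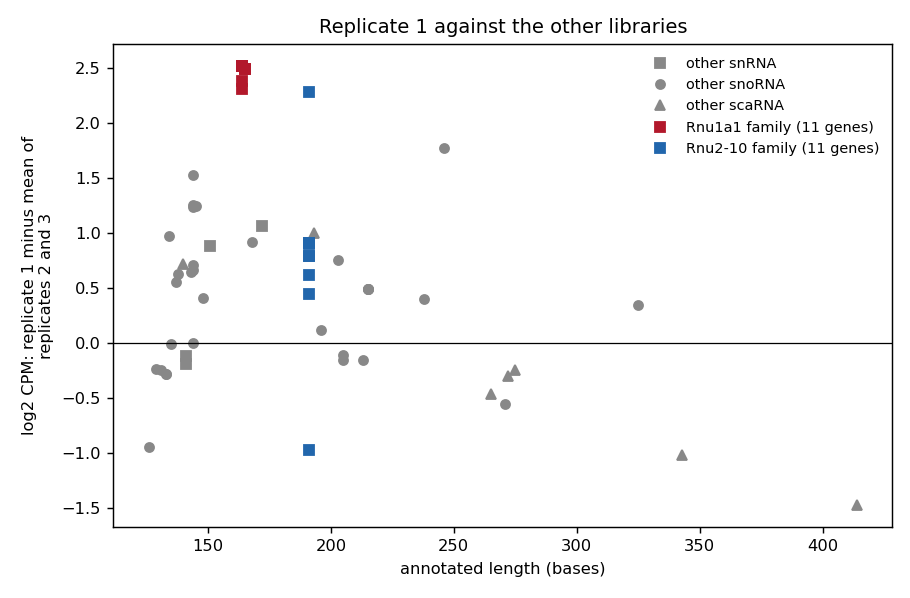
Difference in log2 CPM between replicate 1 and the mean of replicates 2 and 3 for each member, against annotated length in bases. The 11 U1 genes lie between 2.32 and 2.52, while the longest scaRNA, Scarna2, lies at -1.47.

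The letters of snoRNA boxes were searched in the 32 snoRNA and 7 scaRNA members. Anywhere in the gene, TGATGA with CTGA, or ACA, occurred in 37 of them, and within 20 bases of the ends in 31. The letters ACA alone occurred somewhere in 94.0% of annotated snoRNA genes. Within 20 bases of the 3′ end, ACA occurred in 21 of 32 snoRNA members, against 53.7% of annotated snoRNA genes. Of the uncounted snoRNA genes of at least 126 bases, 68.3% had it there. For scaRNAs it was 3 of 7 members, against 76.5% of annotated genes, so these looser matches do not set the members apart. TGATGA within 20 bases of the 5′ end together with CTGA within 20 bases of the 3′ end occurred in 6 of 32 snoRNA and 3 of 7 scaRNA members. Among annotated genes it occurred in 20.5% of snoRNA and 9.80% of scaRNA genes. Of the 783 uncounted snoRNA genes of at least 126 bases, 2 had both. ACA lay 3 bases before the 3′ end in 15 of 32 snoRNA and 2 of 7 scaRNA members, against 18.3% and 49.0% of annotated genes and 25.4% of the uncounted snoRNA genes of at least 126 bases. The 9 members with both C and D letters near the ends had mean levels of 26.5 to 842 CPM with a median of 90.4. The 17 with ACA 3 bases before the 3′ end ranged from 2.08 to 261 CPM with a median of 7.04. Lengths were 144 to 343 bases in the former and 131 to 275 in the latter. The levels were not divided by length, and the part of length in the difference was not tested. Among the 13 with neither arrangement were Scarna2, Snord22, Snora74a and the 5 U3 members. Scarna2 and the U3 members do hold both TGATGA and CTGA, but not both near the ends. On the other strand, TGATGA was found anywhere in 2 of 32 snoRNA members and 1.39% of annotated snoRNA genes.

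Most snoRNA members lay within another gene. Of 32, 31 were wholly inside a protein-coding or long noncoding gene on the same strand, as were 5 of 7 scaRNAs and 6 of 26 snRNAs. The share among uncounted genes of these types was not worked out, so nesting is not shown to be particular to the members. The 31 snoRNAs include the U3 genes Rnu3b1 to Rnu3b4, in introns of Tex14. The snRNAs inside a gene were Rnu1a1 and Gm22068 in introns of Tex14, Gm23849 in Rdm1, and Gm25939, Gm24497 and Gm23472 in the long noncoding D230017M19Rik. These hosts were low, at 0.96, 0.71 and 1.71 TPM for Rdm1, at 0.50, 0.31 and 0.15 TPM for Tex14, and at 0.03, 0.18 and 0.06 TPM for D230017M19Rik. Of the snoRNA members, 12 overlapped an annotated exon of a host, so that reads could be credited to either.

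Hosts of counted snoRNA genes were compared with hosts of snoRNA genes that were not counted. The 26 hosts of counted genes had a median of 16.7 ± 1.85 TPM, and the 301 other hosts 5.56 ± 0.623 TPM. The difference of medians of log2(TPM + 1) was 1.64, 1.22 and 1.43 in replicates 1, 2 and 3, higher for counted genes in 3 of 3 libraries. The exact two-sided sign-flip permutation test over libraries gave p = 0.25, the smallest that 3 libraries allow, so it could make no call. The expected counts that chose the members also split these hosts. With protein-coding hosts only it was 0.83. Among hosts with a snoRNA gene of at least 126 bases, an alternative chosen after seeing the data, it was 1.70 with 175 other hosts.

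Within the members, the level of the host and that of the small RNA were not ordered alike. Over the 42 members in a host, host TPM and CPM per kilobase had Spearman's rho of -0.08 and Pearson's r of -0.05 on log2 values, a description over genes that share libraries and in part hosts. The 42 include the U1, U2 and U3 genes within Tex14, Rdm1 and D230017M19Rik, some of them identical copies with equal values. U1, U2 and U3 are transcribed from their own genes, so these values do not describe RNAs cut from introns alone. Scarna10 led the members while its host Ncapd2, a condensin subunit, had 1.56, 2.74 and 2.02 TPM. Gm23262 had 28.5 ± 11.4 CPM while its host Eif4g2, a translation factor, had 537, 332 and 382 TPM.

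Members of the same host also differed from each other. In Snx5, Snord17 had 18.7, 20.0 and 24.1 times the counts of Gm26165 in the 3 libraries, or 12.1 ± 1.61 times per base of annotated length. Their effective lengths in the gene table lay further apart, at 54.4, 33.8 and 36.8 against 3.60, 2.08 and 2.22 bases. Their TPM were 2282, 2774 and 2392 against 1841, 2257 and 1650, so the size of this difference depends on the correction for length. In Atg16l1, Gm25395 had 4.24, 3.70 and 3.88 times those of Scarna6. In Eif4a1, Gm22988 and Gm25835 have the same length, and their ratio was 13.1, 4.0 and 5.16, far apart between libraries. In Rps3, Snord15b had 5.30, 2.88 and 3.07 times the counts of Snord15a. The pair in Rcc1 was nearly equal, with 1.16, 1.11 and 1.14 times as many counts for Snora73b. Gm22988 and Snord15b lie within an annotated exon of their host, Gm25835 and Snord15a in an intron. Snora73a, the lower gene of its pair, overlaps an exon of Snhg3. The part of reads shared with hosts in these ratios was not tested. These ratios need no scaling between libraries, and in each library of these 5 pairs the same gene was the higher one. The U2 genes in D230017M19Rik had no such fixed order. Gm25939 was above Gm23472 in replicates 1 and 3 and below it in replicate 2, and Gm24497 equalled Gm23472 in replicates 1 and 3. Gm23472 shares its sequence with Gm23444 outside this host, and its posterior SD was 43.1%, 39.2% and 56.9% of its posterior mean. That of Gm24497 was 35.6%, 48.4% and 51.7%, so this order says little about the single genes.

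The table made from reads gave most members more counts. It assigned 20280423, 38648369 and 29359896 counts to annotated genes, so relative to the totals the members were lower there: the median log2 ratio of est_counts to expected counts, both as CPM, was -0.46, against 0.01 for all genes past the minimum. In counts, the ratio summed over libraries had a median of 1.24 and exceeded 2 for 9 members, among them Rnu12 at 22.0, Gm23119 at 6.91 and Gm22214 at 4.37. It was below 0.5 for the 4 shorter Rnu3b entries. Past a log2 ratio of 1 in CPM, in either direction, were 9 of 65 members, against 9.94% of all genes tested. The order of the members was similar in both tables, with a rank correlation of 0.92 over 65 genes, and both begin with Scarna10 and Gm22009. Of the 65 members, 61 also reached 20 est_counts in each library, as did 156 genes that are no members.

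**Figure D5:**
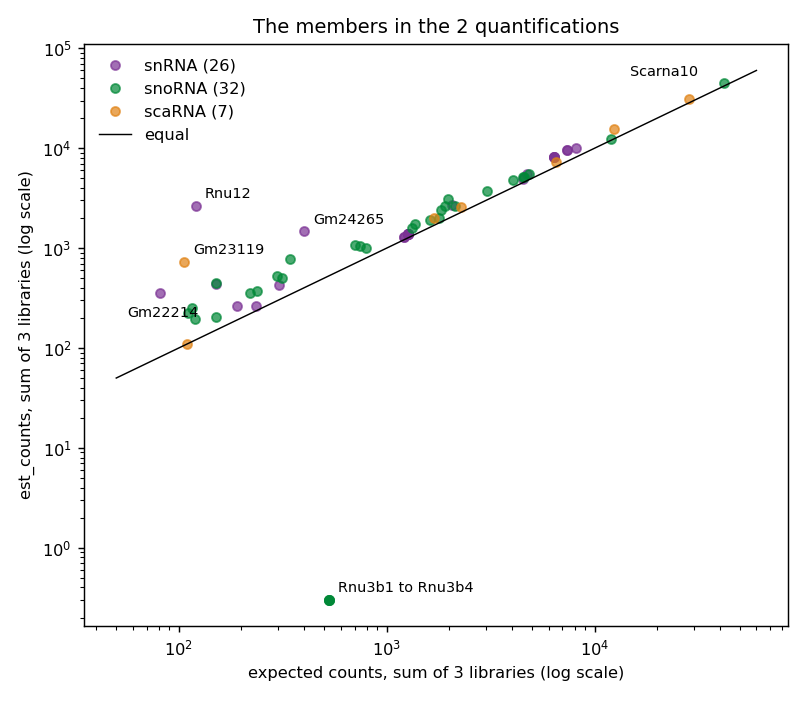
Expected counts against est_counts of each member, each summed over 3 libraries, on log axes, with a line where both are equal. Most members lie just above the line, Rnu12 lies 22.0 times above it, and Rnu3b1 to Rnu3b4 lie far below it.

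At the threshold, Gm26079 with 21.8, 69.8 and 23.9 and Gm22214 with 33, 22 and 26 expected counts were just inside. Just outside were Rnu1b6, Gm24830 and Gm26232 with 51.1, 16.3 and 16.7 each, all related to Rnu1a1.

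The proteins that bind and process these RNAs were not measured. The RNA of their genes in the chromatin fraction is given as TPM of the gene table. These TPM share a total with the members, so small differences between libraries are not read from them. Of the 95 genes on 8 lists, 85 had at least 1 TPM in each library, against 41.1% of protein-coding genes. The box C/D proteins were above that limit for 4 of 4 genes, led by Nop56 (24.8, 29.4 and 36.0 TPM), Nop58 and the methylase Fbl (7.94, 11.0 and 12.7 TPM), with Snu13 lowest. Of the genes of box H/ACA proteins, Gar1 (6.10, 7.01 and 10.3 TPM), the pseudouridine synthase Dkc1 (7.95, 3.55 and 4.09 TPM) and Nhp2 led. With Nop10 lowest at 0.51, 1.14 and 1.32 TPM, 3 of 4 were above that limit. Assembly factors were above it for 7 of 10, led by Pih1d1, Znhit6 and Nolc1 and ending with Naf1. Cajal body factors were above it for 9 of 12, with Smn1, the core of the complex that loads Sm rings, at 11.9, 16.6 and 13.6 TPM, and Gemin6 lowest at 0.10, 0.23 and 0.08 TPM.

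Of the genes of Sm and LSm ring proteins 14 of 16 were above the limit, led by Snrpd1 (10.9, 9.02 and 15.7 TPM), with Snrpf lowest. The genes of proteins specific to single snRNPs were above it for 18 of 19 and had the highest list median, 15.4 ± 2.21 TPM. Their leader Snrnp70, which binds U1 snRNA, had 181, 189 and 196 TPM. Zcrb1 and Rnpc3, of the minor spliceosome, followed at 88.5, 65.7 and 83.2 TPM and at 40.6, 35.3 and 34.6 TPM. All 23 genes of snRNA transcription and 3′ end processing were above the limit, led by Snapc3 and the Integrator subunits Ints6 and Ints8, with Snapc2 lowest. All 7 genes of end trimming and capping were too, led by Tgs1, which makes the trimethyl cap (59.2, 46.6 and 41.5 TPM), and the U6 trimming enzyme Usb1, with Larp7 lowest at 1.91, 4.42 and 4.07 TPM.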

How the data were processed

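Per the file headers and the notes that accompany the samples, the authors deposited a gene table with expected counts (estimated counts that need not be whole), TPM, effective lengths and posterior mean and SD of the count, and a transcript table made directly from reads with est_counts, TPM and effective lengths, all on mm10 with the GENCODE M21 annotation. The deposited TPM cover every row of a table, rows that are no gene included. The quantification tools and any use of strand in counting: not given in the sources used here.

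Types were read from the transcript identifiers, and each gene of the 3 types had 1 transcript. The gene table held 26345 rows that are no annotated gene, with 1.34%, 0.292% and 0.416% of the expected counts in replicates 1, 2 and 3. They were left out of the totals behind CPM. Log2 values had a prior of 0.5 counts, and host levels were log2(TPM + 1). Sequences were aligned globally with Biopython 1.88 (match 1, mismatch 0, gap opening -1, extension -0.5), and families joined members of at least 85% identity and lengths within 15%. The identity limit was chosen after seeing the data. Counts were rounded for the TMM factors of edgeR 4.0.16 and the size factors of DESeq2 1.42.0 in R 4.3.3. Python 3.11.15 served the remaining steps, with pandas 2.3.3, numpy 2.4.6, SciPy 1.17.1 and matplotlib 3.10.9.

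With 1 condition the only test was the exact two-sided sign-flip permutation test of host levels. A chi-square over 11467 genes found no pair of libraries to be copies (at least 41.7 per degree of freedom). The calculations were tested on simulated data. The members and gene lists were chosen with earlier results of these data known. Named genes were those with the 10 highest levels, the 3 highest and the lowest of each type, the 3 largest and smallest spreads and table ratios, the genes next to the minimum, genes named Rnu or Scarna, a fixed set of other small RNAs, and the 3 highest and the lowest gene of each list. Other genes named were chosen after their values were seen.

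Alternatives were minimums of 10 or 50 counts or 1 CPM, est_counts, other scalings and prior counts, other host and motif rules, and leaving out each library.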

Additional observations from a re-analysis of the deposited data

How the results depend on the processing

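The number of counted genes was 71 with a minimum of 10, 52 with 50 and 66 with 1 CPM in each library, and 65 to 70 without one replicate. It was 217 by est_counts, and the cause of this and the shifts that follow was not tested. By est_counts, the members' share of counts was 0.307% instead of 0.444%, their share of TPM 6.69% instead of 38.4%, and the level of Scarna10 524 instead of 842 CPM. Leaving out one replicate gave 0.389% to 0.473% of counts, 35.4% to 40.4% of TPM and 773 to 905 CPM. The median level of the members was 29.7 CPM, 11.5 to 36.6 CPM leaving out one replicate, with the low value without replicate 1. Their median SD of log2 CPM was 0.53, and 0.15 to 0.59 with one replicate left out. The median log2 ratio of the tables was -0.46, -0.55 with a minimum of 50 and -0.49 to -0.46 with one replicate left out. The difference in host level was 0.83 to 1.75 over its alternatives, 1.32 to 1.53 with one replicate left out, above 0 in each. TMM and DESeq2 factors moved the mean level of 0 of 65 members by more than their SD, and est_counts moved 26. The TMM factors were 0.939 to 1.05, so a mean over libraries could change little. A large SD also hides a shift: by est_counts Rnu1a1 went from 29.7 to 19.2 CPM, with an SD of 31.6, and was not among the 26. No paired analysis was possible because the libraries form 1 group. The 3 libraries and the uncertain assignment of reads among copies limit the precision.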

Other observations

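Of the 156 genes of these types that had at least 20 est_counts in each library without being members, 105 had 0 expected counts in every library, 81 had an effective length of 0 in every library of the gene table, and 89 were shorter than the shortest member. They were 86 snoRNA, 63 snRNA and 7 scaRNA genes, with a median length of 116 bases. The snoRNA Gm24339, with 76 bases, had 0 expected counts and 1000, 786 and 801 est_counts in replicates 1, 2 and 3. Gm25605, an snRNA gene of 124 bases, had 1, 2 and 0 expected counts and 946, 880 and 719 est_counts. Snord21, with 94 bases, had 0 expected counts and 865, 461 and 447 est_counts. Gm24336, a snoRNA of 146 bases and so above the length of the shortest members, had 13, 12 and 11 expected counts and 453, 528 and 478 est_counts. Scarna17 had 0 expected counts and 70, 60 and 54 est_counts. These genes were chosen after their values were seen.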
